A study of Mus musculus with 4 samples.

Results

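Expression of 10 genes of bone mineralization and phosphate handling was followed in C3H10T1/2 cells, a mouse embryonic mesenchymal line with stem cell properties, by sequencing of poly(A) RNA. The genes were Spp1, Dmp1, Ibsp, Mepe, Phex, Alpl, Phospho1, Enpp1, Ank and Bglap, chosen by name, and each matched 1 row among the 54532 genes of the count table. There were 4 groups with 1 library each. The control cells received a control siRNA for 48 h and the siDNMT1 cells an siRNA against DNMT1, the methyltransferase that copies DNA methylation after replication. The OB group received control siRNA and then osteoblast (OB) medium for 3 days, which holds dexamethasone, 50 µM ascorbic acid and 10 mM glycerophosphate. The siDNMT1_OB group received DNMT1 siRNA followed by the same medium. Because every group is 1 library of 1 cell line, no difference below has a replicate check, and the intervals given cover counting error only, since the reads carried no molecular identifiers.

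Bone mineral grows in a collagen matrix where phosphate is released and inorganic pyrophosphate, which blocks crystal growth, is removed. ENPP1 makes pyrophosphate outside the cell, ANK is a membrane protein that raises its level there, tissue-nonspecific alkaline phosphatase (ALPL) breaks it down, and PHOSPHO1 frees phosphate inside matrix vesicles. The acidic SIBLING proteins (small integrin-binding ligand, N-linked glycoproteins), here SPP1 (osteopontin), DMP1, IBSP (bone sialoprotein) and MEPE, bind mineral or control its growth. PHEX is a membrane endopeptidase of osteoblasts and osteocytes whose loss causes X-linked hypophosphatemia, and Bglap encodes osteocalcin, a vitamin K dependent protein of late osteoblasts.

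The libraries held between 22296046 counts in OB and 27367792 in control. All 8 mesenchymal marker genes passed the expression filter, a mean of 1 or more over the 4 libraries in CPM, which are counts scaled to library size, with a summed level of 24646 to 31203 CPM that was mostly Col1a1, Col1a2 and Vim. Of these markers, Ly6a fell by 1.03 in siDNMT1 against control, Pdgfra rose with OB induction by 2.47 after control siRNA and 1.56 after DNMT1 siRNA, and Thy1 rose by 1.22 with the latter. Of 5 osteocyte markers, which include Dmp1, Mepe and Phex, 3 passed the filter with a sum of 52.9 to 86.1 CPM, most of it Pdpn (1178 to 1618 counts), while Sost had 0 counts in every library. Sp7, a transcription factor required for osteoblast formation, had 5 counts in the control library, 1 with siDNMT1, 8 with OB and 4 with siDNMT1_OB. Dnmt1, examined as a check of the labels, had 7195 counts in the control library, 3375 with siDNMT1, 1931 with OB and 2492 in the library labelled siDNMT1_OB. Thus Dnmt1 was lower in siDNMT1 than in control, with a log2 fold change of -1.01, but the library labelled siDNMT1_OB held no less Dnmt1 than OB, with a value of 0.13. This limits every direction below that rests on that library.

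The 10 genes lie on 7 chromosomes on GRCm38. The SIBLING genes share chromosome 5 on the plus strand, in the order Dmp1 (104202613 to 104214102), Ibsp (104299171 to 104311469), Mepe (104325329 to 104338611) and Spp1 (104435118 to 104441050). Phex lies on chromosome X (157162075 to 157415312), Alpl on chromosome 4 (137741733 to 137796384), Enpp1 on chromosome 10 (24637914 to 24712159) and Bglap on chromosome 3 (88383501 to 88384464), each on the minus strand. Ank (chromosome 15, 27466677 to 27594909) and Phospho1 (chromosome 11, 95824499 to 95832140) lie on the plus strand. Counts of Phospho1 are uncertain, because 1818 of its 2029 exonic bases (89.6%) also belong to exons of Zfp652 on the same strand and 1708 to exons of Abi3 on the other. Spp1 shares 309 of its 1648 exonic bases with the gene model Gm42793, which held at most 15 counts.

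The promoter windows of the genes differed in CpG content, the dinucleotide that DNMT1 methylates. RefSeq windows (build GRCm38.p6, from 250 bases before to 50 after the annotated start) matched all 10 genes, and the window nearest the start in the count table was used. Windows of 6 genes held fewer CpGs than the median of 7 over all 32851 windows, with 3 in Spp1, 5 in Dmp1, 5 in Ibsp, 3 in Mepe, 4 in Phex and 4 in Bglap. The other windows held more, with 22 in Enpp1, 26 in Alpl, 42 in Phospho1 and 53 in Ank. No methylation was measured in the libraries described here. The windows of Spp1, Dmp1 and Phex, the 3 members called in any comparison below, are shown with those of Alpl and Ank, which are rich in CpG, the first near 0 counts and the second among the most abundant members. Capitals mark the RUNX core TGTGGT and the TATA motif TATAAA on either strand, and no match to one overlaps a match to the other in the 10 windows.
Spp1, chr5:104434861-104435160, plus strand: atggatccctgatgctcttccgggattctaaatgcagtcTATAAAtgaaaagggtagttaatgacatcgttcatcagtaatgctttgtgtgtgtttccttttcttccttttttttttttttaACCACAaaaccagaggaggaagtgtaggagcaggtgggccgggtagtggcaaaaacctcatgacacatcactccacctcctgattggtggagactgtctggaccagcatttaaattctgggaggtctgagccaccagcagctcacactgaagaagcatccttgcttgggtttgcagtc
Dmp1, chr5:104202367-104202666, plus strand: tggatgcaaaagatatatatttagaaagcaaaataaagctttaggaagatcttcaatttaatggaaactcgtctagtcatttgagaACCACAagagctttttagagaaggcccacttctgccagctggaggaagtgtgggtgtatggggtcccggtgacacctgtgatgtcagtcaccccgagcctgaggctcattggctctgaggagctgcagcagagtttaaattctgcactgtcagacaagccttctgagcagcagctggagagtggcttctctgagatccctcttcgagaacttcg
Phex, chrX:157415237-157415536, minus strand: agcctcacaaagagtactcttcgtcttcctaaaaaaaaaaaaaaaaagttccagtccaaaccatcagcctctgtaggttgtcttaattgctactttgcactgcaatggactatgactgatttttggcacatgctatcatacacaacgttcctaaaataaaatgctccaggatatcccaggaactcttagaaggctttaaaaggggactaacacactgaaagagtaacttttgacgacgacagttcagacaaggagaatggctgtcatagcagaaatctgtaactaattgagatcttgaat
Alpl, chr4:137796335-137796634, minus strand: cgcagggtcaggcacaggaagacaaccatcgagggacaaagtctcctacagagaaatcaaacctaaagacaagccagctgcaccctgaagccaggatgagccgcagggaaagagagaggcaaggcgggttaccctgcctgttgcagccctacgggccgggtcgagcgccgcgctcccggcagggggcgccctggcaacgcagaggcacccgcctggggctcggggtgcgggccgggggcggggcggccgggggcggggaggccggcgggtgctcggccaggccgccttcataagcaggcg
Ank, chr15:27466427-27466726, plus strand: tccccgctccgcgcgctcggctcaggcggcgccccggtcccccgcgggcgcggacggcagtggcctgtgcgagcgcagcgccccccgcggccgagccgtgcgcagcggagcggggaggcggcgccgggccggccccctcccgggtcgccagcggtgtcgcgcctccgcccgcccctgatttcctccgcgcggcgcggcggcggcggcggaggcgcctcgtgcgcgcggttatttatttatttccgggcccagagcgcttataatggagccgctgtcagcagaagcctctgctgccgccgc

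The RUNX core was found in 5 of the 10 windows (Spp1, Dmp1, Mepe, Enpp1 and Bglap), against 16.8% of all windows of this length. TATAAA was found in 4 (Spp1, Ibsp, Mepe and Bglap), against 13.6%. In Spp1 the TATAAA match began at position -211 from the annotated start, whereas in Bglap it began at -27. The GC box GGGCGG was found in Alpl, Phospho1, Enpp1 and Ank, 4 windows, against 35.7% of all windows. Also searched on both strands was the AP-1 motif TGANTCA, found in Phospho1 only (7.81% of all windows). So was TGTTCT, a half-site of the glucocorticoid receptor motif, found in Ibsp and Bglap (19.0%). These matches describe letters in the windows and not bound sites.

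Levels were then compared between genes per kilobase of exon (RPKM), within each library. Spp1 and Ank were the 2 most abundant members in all 4 libraries. In control, Spp1 had 332 RPKM and Ank 74.0, followed by Enpp1 with 2.65, Phex with 1.50 and Dmp1 with 1.07. The other members were below 1 RPKM in control, with Phospho1 at 0.436 and Bglap at 0.119. The order in the middle varied between libraries. In OB Phex had 4.83 RPKM and Enpp1 2.24, in siDNMT1 Dmp1 (0.876) stood above Phex (0.720), and siDNMT1_OB had the order of control, with Enpp1 at 1.65 and Phex at 0.998, both above Dmp1. Of the 10 genes, 5 (Spp1, Dmp1, Phex, Enpp1 and Ank) passed the expression filter and 5 did not.

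**Figure D1:**
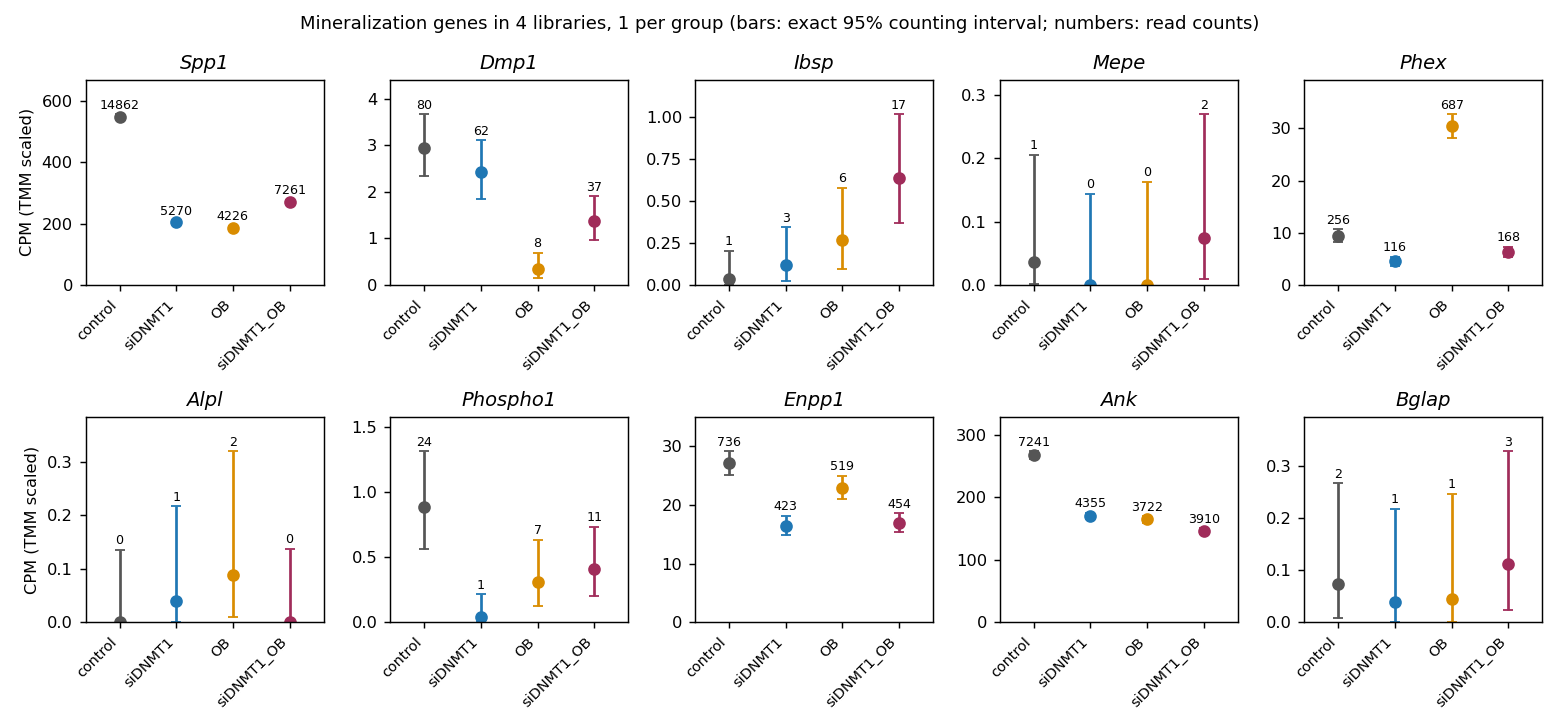
Level of each gene in CPM (linear axis from 0) in the 4 libraries, 1 per group, with exact 95% counting intervals as bars and read counts as numbers. Spp1 and Ank were highest in control, Phex was highest in OB at 30.4 CPM, and Alpl, Mepe and Bglap had at most 3 counts in any library.

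Spp1, the most abundant member, was lower in each of the other libraries than in control. It had 14862 counts in the control library, 5270 with siDNMT1, 4226 with OB and 7261 with siDNMT1_OB. This corresponds to 548 CPM (95% interval 539 to 557) in control, 206 CPM (200 to 211) in siDNMT1, 187 CPM (181 to 193) in OB and 271 CPM (265 to 278) in siDNMT1_OB. The control library stood highest, and every step in the order of the libraries exceeded the counting interval. In bulk RNA, fewer cells that express a gene and less of its RNA per cell cannot be told apart. Spp1 made up between 98.8% and 99.7% of the SIBLING counts in each library. Markers of monocytes and macrophages, cells that also make osteopontin, were at 9.99 to 12.4 CPM in sum over 5 genes, of which 2 passed the filter. Cd14, most of that sum, was highest in control like Spp1, at 10.2 CPM against 7.38, 7.47 and 7.92 CPM in siDNMT1, OB and siDNMT1_OB. Cd68, the other marker that passed, was lowest in control, at 1.73 CPM against 2.38, 2.61 and 2.32 CPM in that order. Csf1r had 11 counts in control, 6 with siDNMT1, 13 with OB and 21 with siDNMT1_OB. Ptprc had at most 2 counts and Adgre1 0 in all libraries. The part of these markers in the Spp1 result was not tested. Of 5 osteoclast markers, Acp5 and Ocstamp were at 0 in all libraries, and the sum lay between 0.796 and 1.05 CPM.

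Dmp1, a SIBLING protein of osteocytes and dentin, was low throughout and lowest in OB. It had 80 counts in the control library, 62 with siDNMT1, 8 with OB and 37 with siDNMT1_OB, or 2.95 CPM (2.34 to 3.67), 2.42 CPM (1.86 to 3.10), 0.354 CPM (0.153 to 0.697) and 1.38 CPM (0.974 to 1.91). Both untreated libraries stood above both induced ones, and control and siDNMT1 could not be told apart at this depth. It passed the filter through the libraries where it was high.

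Ibsp, a SIBLING protein of mineralizing bone, had 1 count in the control library, 3 with siDNMT1, 6 with OB and 17 with siDNMT1_OB. No neighbours in this order differed beyond counting error. From siDNMT1 to the library labelled siDNMT1_OB the ratio was 5.43 (95% interval 1.57 to 28.9), and from OB to that library it was 2.39 (0.901 to 7.42). Mepe, a matrix protein of osteocytes, had 1, 0, 0 and 2 counts in the same order, so it was not detectable above the floor of 3 counts, which equals 0.111 to 0.133 CPM in these libraries.

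**Figure D2:**
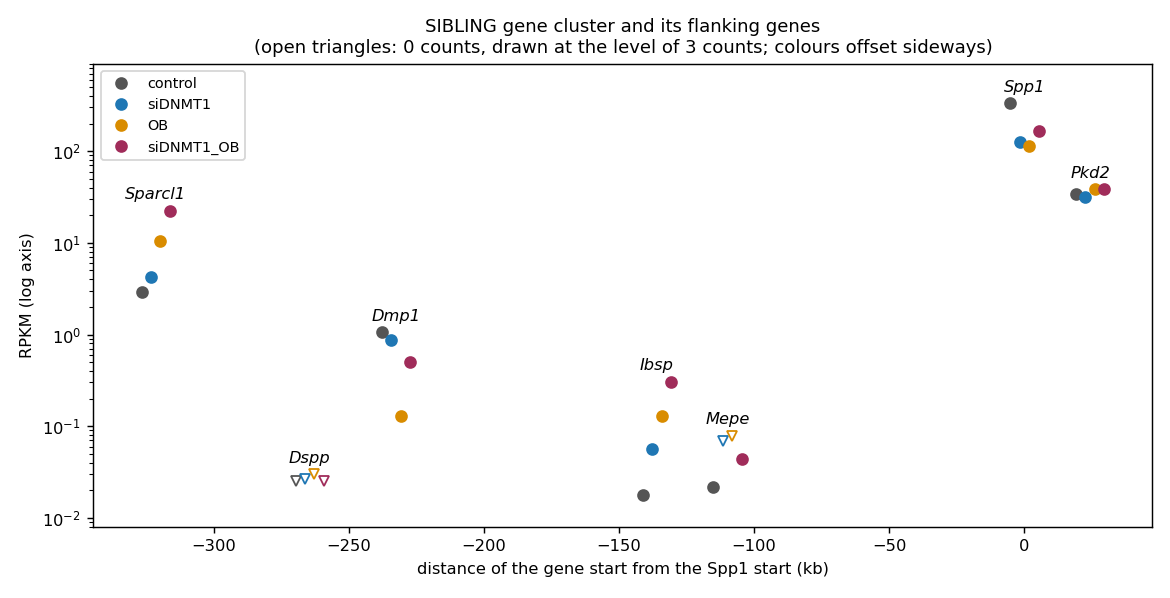
Level in RPKM (log axis) of the SIBLING genes and their flanking genes Sparcl1 and Pkd2 against the distance of each start from the Spp1 start in kb, by library; open triangles stand for 0 counts and are drawn at the level of 3 counts. Spp1 stood above 113 RPKM in every library, while Dspp had 0 counts in all of them.

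The genes beside the SIBLING cluster did not share one pattern. Dspp, the dentin member of the family, had 0 counts in all 4 libraries. Sparcl1, a matrix glycoprotein related to SPARC, had 231 counts in the control library, 317 with siDNMT1, 699 with OB and 1756 with siDNMT1_OB. It was thus lowest in control, the library where Spp1 was highest, and its log2 fold change in the library labelled siDNMT1_OB against OB was 1.08. Pkd2, the polycystin channel gene next to Spp1, had 9351, 8228, 8871 and 10415 counts, with log2 fold changes between -0.10 and 0.28 in the 4 comparisons. Abcg2, listed with these neighbours, lies on chromosome 6 in the count table and was left out of this description, although it rose with OB induction by 1.22 after control siRNA and 1.39 after DNMT1 siRNA.

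Phex was highest in OB, the library where Dmp1 and Spp1 were lowest. It had 256 counts in the control library, 116 with siDNMT1, 687 with OB and 168 with siDNMT1_OB, or 9.44 CPM (8.32 to 10.7), 4.53 CPM (3.74 to 5.43), 30.4 CPM (28.1 to 32.7) and 6.28 CPM (5.36 to 7.30). The OB library stood alone at the top, and siDNMT1 and the library labelled siDNMT1_OB lay below control and OB. All steps in this order exceeded the counting interval.

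Neither phosphatase that supplies phosphate passed the expression filter, and Alpl was at or near the floor. Alpl had 0 counts in the control library, 1 with siDNMT1, 2 with OB and 0 with siDNMT1_OB, 3 in all. The floor of 3 counts, a one-sided limit for a count of 0, equals 0.111 CPM in control and 0.112 CPM in siDNMT1_OB, and the upper ends of the 95% intervals are 0.136 and 0.138 CPM. Its intestinal and placental-type paralogs Akp3, Alpi and Alppl2 had 0 counts in every library. Alpl transcripts were therefore not detectable above the floor in any state, including OB after 3 days. Phospho1 had 24, 1, 7 and 11 counts, and its ratio of siDNMT1 to control was 0.0441 (0.00107 to 0.271). That ratio rests on 1 count, and which exonic bases the counts came from is not known.

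Both genes that supply pyrophosphate were highest in control. Enpp1 had 736 counts in the control library, 423 with siDNMT1, 519 with OB and 454 with siDNMT1_OB, or 27.1 CPM (25.2 to 29.2), 16.5 CPM (15.0 to 18.2), 22.9 CPM (21.0 to 25.0) and 17.0 CPM (15.4 to 18.6). Control and OB lay above siDNMT1 and the library labelled siDNMT1_OB, and the latter could not be told apart. Ank had 7241, 4355, 3722 and 3910 counts in the same order, or 267 CPM (261 to 273), 170 CPM (165 to 175), 165 CPM (159 to 170) and 146 CPM (142 to 151). For Ank control stood alone, and siDNMT1 and OB did not differ beyond counting error.

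Bglap had 2 counts in the control library, 1 with siDNMT1, 1 with OB and 3 with siDNMT1_OB. Its paralogs Bglap2 and Bglap3 lie beside it. Of the 50-base words in their transcripts, 56.6% of those of Bglap, 88.2% of those of Bglap2 and 6.99% of those of Bglap3 also occur in another of the 3 genes, so separate counts are uncertain, most of all for Bglap2. Summed over the 3 genes the counts were 6 in the control library, 8 with siDNMT1, 5 with OB and 6 with siDNMT1_OB, at most 0.312 CPM. The reads assigned to the 3 copies were thus near the floor in sum. Reads that match several copies may not have been counted, so the level of osteocalcin transcripts stays uncertain.

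To see how DNMT1 siRNA changed these genes without induction, the siDNMT1 library was set against control. A gene is called higher or lower here when its log2 fold change (with a prior count of 2 added before the log) reaches 1 in either direction. This is a rule of size alone, without the p-value that the study also required. Spp1 fell by 1.41 on the log2 scale (95% interval -1.46 to -1.37) and ranked 54 from the lowest of 13233 tested genes. Phex fell by 1.05 (-1.39 to -0.74), so that its interval reaches inside the threshold. These 2 of the 5 members that passed the filter were called lower and 0 higher, against 1.37% of all tested genes called lower and 1.97% called higher, 3.34% in all. The pyrophosphate genes lay below 0 without reaching the threshold, Enpp1 at -0.71 (-0.89 to -0.54) and Ank at -0.65 (-0.71 to -0.60). Dmp1 had -0.28 (-0.79 to 0.21), within counting error.

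**Figure D3:**
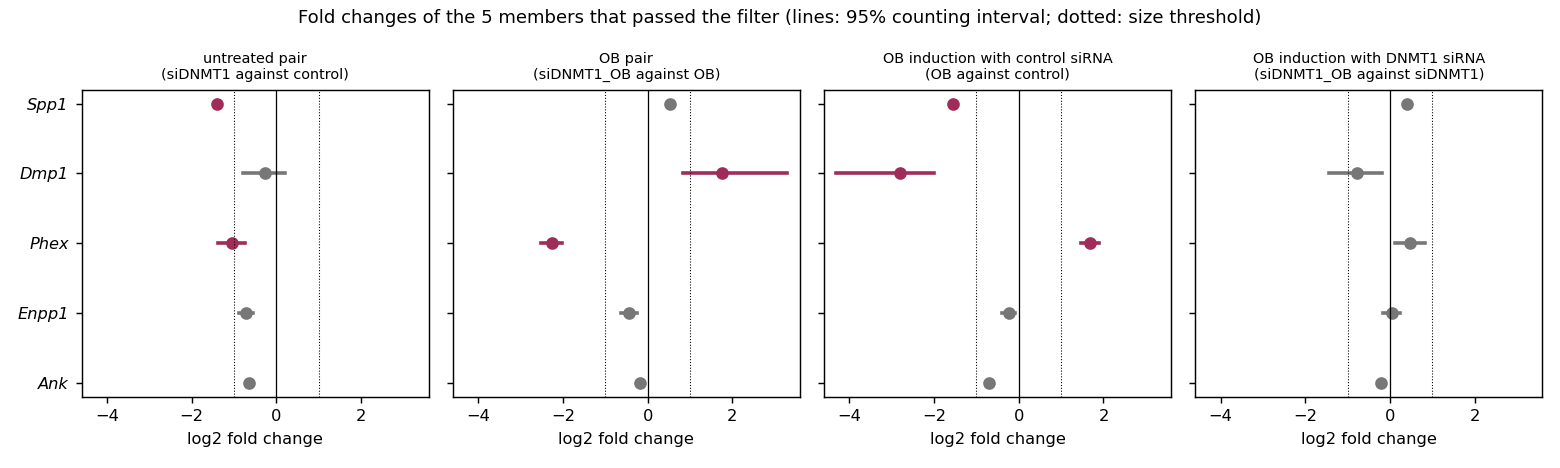
Log2 fold change (horizontal axis) of the 5 members that passed the filter in the 4 comparisons, with 95% counting intervals as lines and the size threshold dotted; coloured points are past it. In OB against control Spp1 and Dmp1 lie below -1 and Phex above 1, whereas in siDNMT1_OB against siDNMT1 no point passes the threshold.

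After OB induction the same question was asked of OB and the library labelled siDNMT1_OB. Phex fell by 2.26 (-2.53 to -2.03) and ranked 5 from the lowest of all tested genes. Dmp1 rose by 1.76 (0.84 to 3.28), rank 40 from the highest, from 8 counts to 37. One member each was thus called lower and higher, 1 of 5 in either direction, against 1.37% of all tested genes called lower and 2.36% called higher, 3.73% in all. Spp1 had 0.54 (0.48 to 0.59) and Ank -0.17 (-0.24 to -0.11), both past counting error but short of the threshold. Enpp1 had -0.43 (-0.62 to -0.25). With a stricter filter, a mean of at least 5 CPM, Dmp1 is not tested and Phex remains called.

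OB induction itself was examined first with control siRNA. The induced cells may also have been longer in culture than the others, and the part of that time was not tested. Dmp1 fell by 2.81 (-4.32 to -2.01), rank 36 from the lowest, and Spp1 fell by 1.55 (-1.60 to -1.50), while Phex rose by 1.68 (1.48 to 1.90). Of the 5 members that passed the filter 2 were thus called lower and 1 higher, against 7.1% and 10.6% of all tested genes, 17.7% in all. Ank had -0.70 (-0.76 to -0.64) and Enpp1 -0.24 (-0.41 to -0.08). Below the filter, Ibsp had 6 counts in OB against 1 in control, a ratio of 7.20 (0.873 to 331), which counting error alone can span. At 5 CPM Dmp1 again drops out of the test.

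Under the DNMT1 siRNA label, none of the 5 members was called in the library labelled siDNMT1_OB against siDNMT1, 0 higher and 0 lower. Of all tested genes, 6.83% and 2.71% were called there by the same size rule, 9.54% in all. Both libraries carry a DNMT1 siRNA label, but siDNMT1_OB held no less Dnmt1 than OB. Phex had 0.46 (0.12 to 0.83), Spp1 0.40 (0.35 to 0.45) and Enpp1 0.04 (-0.16 to 0.23). Dmp1 had -0.77 (-1.44 to -0.20) and Ank -0.22 (-0.28 to -0.16). The 2 induction comparisons share no library, and neither do the 2 DNMT1 siRNA comparisons, but each of the first shares libraries with each of the second. An additive edgeR fit of both factors, which takes the disagreement between states as noise, called 0 of the 5 members for DNMT1 siRNA (0 of all genes) and 0 for OB induction (2786 of all genes) at an adjusted p under 0.05 with edgeR's quasi-likelihood test and Benjamini-Hochberg adjustment, with 3 of 5 at an unadjusted p under 0.05 for each factor. Over all 13233 tested genes, 1148 reached that unadjusted p for DNMT1 siRNA and 5027 for OB induction. Among the 5 members, the lowest adjusted p of this edgeR fit was 0.0613, for Phex in OB induction.

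**Figure D4:**
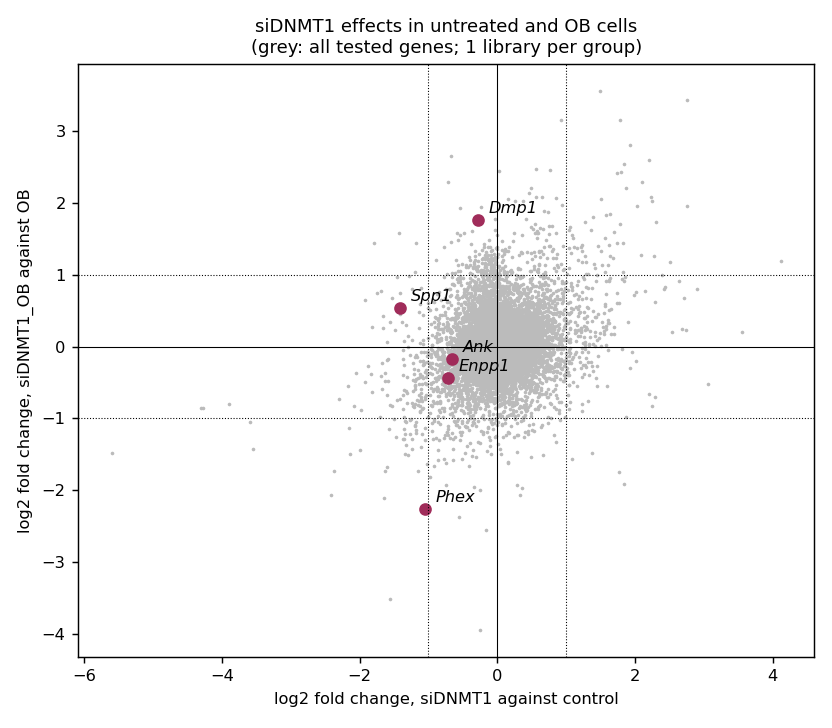
Log2 fold change of siDNMT1 against control (horizontal) and of siDNMT1_OB against OB (vertical) for all 13233 tested genes in grey and the 5 members in colour, with the size threshold dotted. Spp1 lies at -1.41 and 0.54, Dmp1 at -0.28 and 1.76, and Phex below -1 on both axes.

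The DNMT1 siRNA effects in both states were then set against each other, as the value of the OB pair minus that of the untreated pair. For Dmp1 the difference was 2.03 (counting interval 1.05 to 3.45, or 0.83 to 3.24 when centred on the value with the prior count), rank 34 from the highest of all tested genes, and for Spp1 it was 1.95 (1.88 to 2.02), rank 37. For Phex it was -1.21 (-1.61 to -0.82), as its level was lower in siDNMT1 than in control, and further below OB in the library labelled siDNMT1_OB. These are 2 members above by at least 1 and 1 below, against 3.27% and 2.95% of all tested genes, 6.23% in all. Of these members, Dmp1 passed the filter through the libraries where it was high, and it is not tested at a mean of at least 5 CPM. Ank had 0.48 (0.40 to 0.56) and Enpp1 0.28 (0.03 to 0.53). With total count or upper quartile scaling the Enpp1 value was 0.24, and its interval (-0.01 to 0.49) included 0. Dnmt1 itself had 1.13, since of the 2 siRNA pairs its level was lowered in the untreated one only, and no difference was tested across conditions. With OB induction Dnmt1 had -1.63 after control siRNA and -0.50 under the DNMT1 siRNA label.

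Markers of other cell types were read in the same libraries. Of 5 chondrocyte markers, cells that can also express Spp1, Phex and Ibsp, 2 passed the filter, and their summed level was 484 CPM in the control library, 683 with siDNMT1, 404 with OB and 749 with siDNMT1_OB. Most of it in control was Col2a1, the main cartilage collagen, with 10580, 13440, 4675 and 13813 counts in that order. Sox9, the transcription factor of cartilage cells, had 2549, 4038, 4429 and 6215 counts and rose by 1.06 with OB induction after control siRNA, where Col2a1 had -0.92. In the library labelled siDNMT1_OB against OB, Col2a1 rose by 1.32 (1.27 to 1.37). Below the filter Col9a1 had 2, 6, 33 and 19 counts, Matn1 at most 2, and Acan, the cartilage proteoglycan, 0 in every library. Of 5 adipocyte markers 2 passed, with a summed level of 4.46, 3.83, 44.8 and 49.9 CPM in the same order and Plin1 at 0 counts throughout. Most of this sum was Fabp4, with 111, 72, 963 and 1305 counts, whereas Lpl had 10, 25, 47 and 29 counts and rose by 1.24 in siDNMT1 against control. Of 4 endothelial markers only Tek passed, and their sum was 2.25, 6.21, 3.18 and 7.81 CPM, most of it Tek. The others did not share its pattern. Pecam1 had 8, 4, 4 and 3 counts in the same order, Cdh5 1, 3, 1 and 0, and Kdr 1, 0, 4 and 3. Tek had 51, 152, 63 and 203 counts and rose by 1.62 in siDNMT1 against control and by 1.42 in the library labelled siDNMT1_OB against OB. The part of these markers in the results above was not tested. Of 5 skeletal muscle and 4 epithelial markers none passed the filter.

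Genes whose profile over the 4 libraries lay nearest to a member were found by the Euclidean distance between centred log2 CPM values among 10125 tested protein-coding genes. For Spp1 they were Erbb3 (0.14), Upp1 (0.27) and Gm9774 (0.28), 3 genes with at most 65 counts in any library. For Dmp1 they were Ndc80 (0.24), E2f8 (0.24) and Dusp4 (0.29). For Phex they were Tgfbr2 (0.57), Acsbg1 (0.67) and Sncg (0.70), so its profile had no neighbour as close as the other members had. Enpp1 lay nearest to Gypc (0.03), Abhd8 (0.05) and Ndfip2 (0.06), and Ank nearest to Hnrnpf (0.08), Plp2 (0.09) and Cpt1a (0.10). Among the members themselves, Enpp1 and Ank were closest (0.40), and Dmp1 and Phex were farthest apart (4.07). With 4 points a profile is a description only.

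The other genes of phosphate and pyrophosphate handling were taken from a list of 15, of which 6 passed the filter. None was called in the DNMT1 siRNA comparisons, where 3.34% and 3.73% of all tested genes were called, so that none of 6 is near the background. The list medians were -0.23 untreated and -0.05 in OB, against -0.00144 and 0.0129 for all tested genes. Slc20a1, which imports phosphate, had 1601 counts in the control library, 1246 with siDNMT1, 627 with OB and 1299 with siDNMT1_OB. It fell by 1.09 (-1.23 to -0.96) with OB induction and control siRNA, and was otherwise within the threshold. Smpd3, a sphingomyelinase needed for skeletal mineralization, had 218, 294, 914 and 929 counts and rose with induction by 2.32 (2.12 to 2.55) after control siRNA and 1.59 (1.41 to 1.79) after DNMT1 siRNA. The list medians for induction were -0.28 and -0.01, against 0.00833 and 0.00103 for all tested genes. The kidney and intestinal phosphate transporters Slc34a1, Slc34a2 and Slc34a3 had 0 counts in every library, and Fgf23, the phosphate-lowering hormone of osteocytes, had at most 3.

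Of 11 bone matrix genes 6 passed the filter. Col1a1 and Col1a2, the chains of type I collagen, and Sparc (osteonectin) were abundant and stayed within the threshold in all 4 comparisons, with log2 fold changes between -0.08 and 0.32. Mgp, a vitamin K dependent inhibitor of mineralization, had 2016 counts in the control library, 2479 with siDNMT1, 8678 with OB and 13109 with siDNMT1_OB, and rose with induction by 2.37 (2.30 to 2.44) and 2.34 (2.28 to 2.40). Omd (osteomodulin) rose by 2.40 and 1.23. Clec3b (tetranectin) rose by 4.30 and 2.68, and in the library labelled siDNMT1_OB against OB it fell by 1.96 (-2.11 to -1.82), from 1693 counts to 514. The list thus had 3 of 6 called higher with induction in each siRNA condition, against 10.6% and 6.83% of all tested genes, and its medians were 1.34 and 0.73. Its medians in the DNMT1 siRNA comparisons were 0.15 and 0.07.

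Of 7 regulators of mineralizing osteoblasts 5 passed the filter. Runx2, the master transcription factor of osteoblasts, had 2049, 2459, 1644 and 2327 counts and log2 fold changes between -0.14 and 0.35. Vdr, the vitamin D receptor, had 1323 counts in the control library, 1213 with siDNMT1, 3006 with OB and 2709 with siDNMT1_OB, and rose with induction by 1.44 (1.35 to 1.54) and 1.10 (1.00 to 1.20). Pth1r, the parathyroid hormone receptor, had 29, 12, 43 and 43 counts, fell by 1.07 (-2.30 to -0.18) in siDNMT1 and rose by 1.62 (0.83 to 2.84) from there to the library labelled siDNMT1_OB. Dlx5 and Msx2 were not called in any comparison. The list medians were 0.14 and -0.19 for DNMT1 siRNA without and with induction, and 0.07 and -0.14 for induction with control and DNMT1 siRNA.

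**Figure D5:**
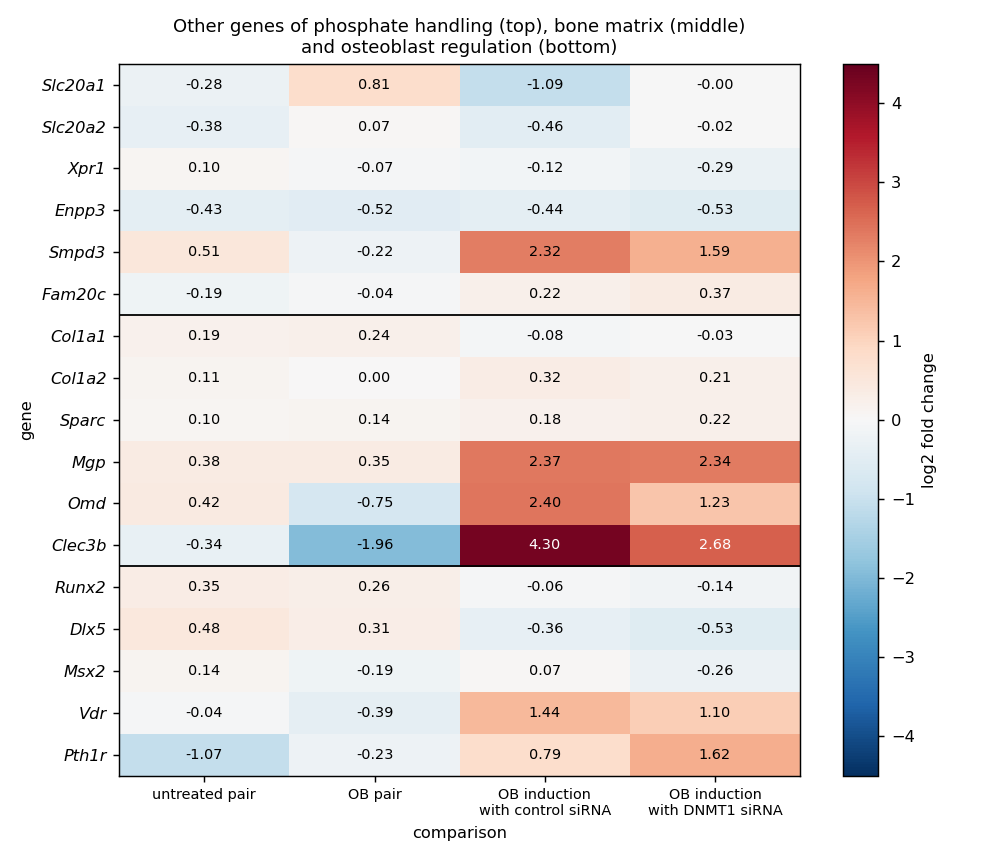
Log2 fold changes (colour scale and numbers) of the genes that passed the filter on the lists of phosphate handling, bone matrix and osteoblast regulation, in the 4 comparisons. Mgp, Omd and Clec3b rose with induction under both siRNAs, while Col1a1, Col1a2, Sparc and Runx2 stayed within the size threshold of 1.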

How the data were processed

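The authors deposited unnormalized read counts (whole numbers) for each gene for 1 library in each of 4 groups, with exonic gene lengths. Per the study's methods and the submitters' processing notes, TruSeq poly(A) libraries were sequenced from both ends, trimmed with Trimmomatic, aligned with HISAT2 (mm10) and counted with featureCounts. Versions, strand use and the handling of reads that match several genes are not given in the sources used here, so overlapping genes and close copies are uncertain. Of 54409 genes shared with GENCODE M21 (GRCm38), 98.3% had the same position, as did all 10 members.

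From the deposited counts, TMM factors (0.991 to 1.01) came from edgeR 4.0.16 (R 4.3.3), run on the 13233 genes whose mean CPM reached 1, which were also the genes tested. Log2 fold changes used a prior count of 2, and a call required a size of at least 1. Intervals are exact (Clopper-Pearson) 95% intervals from SciPy 1.17.1. For fold changes they are those of the ratio without the prior count. For Dmp1 in siDNMT1_OB against OB that log2 ratio was 1.97, against 1.76 with the prior count. For differences of effects they are a normal approximation on the log scale, centred on the difference without the prior count. With 1 library a group no p-value compares groups, except in the additive edgeR alternative. The read test listed below compares single libraries, not conditions. No fold is given where both libraries held at most 3 counts. RPKM is CPM per kilobase of exonic length.

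The members and lists were chosen with earlier results of these data known. Named were all members, Dnmt1, genes that overlap a member, the 3 nearest profiles of each tested member and up to 3 genes past the threshold per list and comparison; the other names are further genes of these lists, of the marker lists or beside the SIBLING genes, and were chosen after their values were seen. Alternatives covered scaling (total count, upper quartile, DESeq2 1.42.0 size factors), prior count, filter, an exact binomial read test, the additive fit and summed Bglap copies. One gene of the list of regulators is not reported here, and the counts and medians of that list leave it out. The calling procedure was run on simulated counts that held counting error only, so that run does not address variation between replicate libraries.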

Additional observations from a re-analysis of the deposited data

Results flagged for a closer look

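Dnmt1 itself was lower in siDNMT1 than in control (-1.01) but not in the library labelled siDNMT1_OB against OB (0.13). For Spp1 the log2 fold change between the siRNA labels had opposite signs in these 2 pairs. It was -1.41 in siDNMT1 against control and 0.54 in the library labelled siDNMT1_OB against OB, a difference of 1.95. The same 4 Spp1 counts give opposite signs of OB induction, -1.55 after control siRNA and 0.40 under the DNMT1 siRNA label, again a difference of 1.95. For Dmp1 the log2 fold changes between the siRNA labels were -0.28 without induction and 1.76 in the library labelled siDNMT1_OB against OB, a difference of 2.03. The first of them lies within counting error. For Enpp1 the OB effects were -0.24 after control siRNA and 0.04 under the DNMT1 siRNA label, a difference of 0.28, and the second lies within counting error. The interval of this difference (0.03 to 0.53) included 0 with total count and upper quartile scaling (-0.01 to 0.49 with each). Each sign rests on 1 library a group, and these differences were not tested.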

How the results depend on the processing

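With 1 library a group no library could be left out, and the library labelled siDNMT1_OB held no less Dnmt1 than OB. Under the 3 other scalings, both other prior counts and summed Bglap copies, the fold changes of the 5 tested members and their differences between states stayed within their counting intervals (145 of 145 values, with no differences computed for the summed Bglap copies), and under these settings and the read test the number of members called was the same. With a mean of at least 5 CPM Dmp1 left the test, so that 1 member was called in the OB pair, and 201, 257, 1553 and 737 genes were called in the untreated pair, the OB pair and OB induction with control and DNMT1 siRNA, against 442, 493, 2344 and 1262. Without a filter the counts of all genes were 2598, 3273, 6142 and 3866, and 3, 4, 6 and 2 members were called in these comparisons, against 2, 2, 3 and 0, because Ibsp, Phospho1 and Alpl entered on few counts. The additive edgeR fit has 1 DNMT1 siRNA term for both pairs and 1 OB term for both inductions, and called 0 members for the former and 0 for the latter at an adjusted p under 0.05; it called 0 of all genes for DNMT1 siRNA (1148 at an unadjusted p under 0.05) and 2786 for OB induction. The cause of these lower member counts was not tested. No paired analysis was possible because each group holds 1 library and the labels give no replicate numbers. Genes with fewer than about 10 counts in every library, among them Alpl, Mepe and Bglap, lie below what this depth can compare. Dmp1 had 8 counts in OB, so its calls that use that library rest on few counts.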

Other observations

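Paralogs of the members were also read from a list of 11, of which 6 passed the filter. None was called in the DNMT1 siRNA comparisons, where 3.34% and 3.73% of all tested genes were, with medians of 0.16 untreated and 0.09 in OB. With OB induction 3 were higher with control siRNA and 2 with DNMT1 siRNA, with medians of 0.98 and 0.55, where 10.6% and 6.83% of all tested genes were called higher. Enpp2 (autotaxin, which makes lysophosphatidic acid) had 87 counts in the control library, 87 with siDNMT1, 874 with OB and 651 with siDNMT1_OB and rose by 3.56 and 2.81. Enpp5 rose by 1.42 and 1.38, and Mme, a membrane endopeptidase of the same family as Phex, rose by 1.36 with control siRNA and had 0.58 with DNMT1 siRNA. Enpp4, Phospho2 and Ece1 stayed within the threshold in all 4 comparisons. The 3 genes of vitamin K dependent carboxylation, Ggcx, Vkorc1 and Vkorc1l1, were all measured and 0 were called in any of the 4 comparisons, with medians between -0.05 and 0.42. Of all tested genes 3.34%, 3.73%, 17.7% and 9.54% were called there, so that none of 3 says little about these genes.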
